A study of Mus musculus with 8 samples.

Results

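Among the cells of MC38 tumors, natural killer (NK) cells that carried at least 5 transcript molecules of the granzymes D, E, F and G made up 535 of 849 NK cells. They were picked by raw counts of unique molecular identifiers (UMIs, 1 per captured transcript). Barcodes passed when their gene number lay above 400 and below 10000, their UMI total below 50000 and their mitochondrial share at or below 15%. It was called an NK cell with at least 2 UMIs of Ncr1, Klre1 and Klrb1c, at most 1 of Cd3d, Cd3e and Cd3g and at most 4 of C1qa, C1qb and C1qc, and granzyme-rich with at least 5 UMIs of Gzmd, Gzme, Gzmf and Gzmg. This gave 535 granzyme-rich NK cells and 314 other NK cells, 849 NK cells in all, among 9886 kept cells from 10791 barcodes. The 13 genes of the rule chose the cells, so their values are a description and were not tested.

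Single-cell RNA-seq was done on Seq-Well arrays from 8 subcutaneous MC38 tumors, a mouse colon carcinoma line grown in C57BL/6 mice, taken 24 hours after 1 dose. Mice received saline (n = 3 tumors), free R848 (resiquimod, a small-molecule agonist of Toll-like receptors 7 and 8; n = 3) or the medium R848-BPD, a bottlebrush polymer prodrug that releases R848 at a rate between those of a fast and a slow form (n = 2). CD45+ and CD45- cells of each mouse were separated on beads and loaded at a set ratio of 9 to 1, so the share of immune cells among all cells was largely fixed by the loading. The tumors are the replicates. Depth per library ran from 5867590 to 12422614 UMIs, 10698 different barcodes were seen of which 23 occurred in more than 1 library (none of them in an NK cell), and Scrublet marked 5 of the 535 granzyme-rich cells as doublets, which were kept.

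Granzymes are serine proteases stored in the granules of NK cells and cytotoxic T cells and released onto target cells together with perforin, which opens the target membrane. In the mouse, granzymes B to G and N are neighbours in 1 gene cluster that also holds cathepsin G and mast cell proteases, whereas the gene of granzyme A lies elsewhere. Granzymes A and B are the forms best known in killing, and granzymes D to G are known from strongly activated lymphocytes and from NK cells of the pregnant uterus.

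The cluster was examined first because the rule selects genes that sit side by side. On chromosome 14 of the mouse genome (GENCODE vM21 annotation of GRCm38, the assembly also called mm10), all on the minus strand, Mcpt8 (56082166 to 56085273) was followed by Ctsg (56099881 to 56102574), Gzme (56117626 to 56120625), Gzmd (56129556 to 56132608), Gzmg (56156582 to 56159579), Gzmn (56165797 to 56174599), Gzmf (56205263 to 56211417), Gzmc (56231441 to 56234656) and Gzmb (56258838 to 56262260). The 250 bases before the RefSeq start of the 4 genes of the rule (GRCm38.p6) are shown because these genes were detected together in single cells, with the letters TGTGGT or ACCACA, the core bound by RUNX factors, in capitals.
Gzme (chr14:56120626-56120875, minus strand): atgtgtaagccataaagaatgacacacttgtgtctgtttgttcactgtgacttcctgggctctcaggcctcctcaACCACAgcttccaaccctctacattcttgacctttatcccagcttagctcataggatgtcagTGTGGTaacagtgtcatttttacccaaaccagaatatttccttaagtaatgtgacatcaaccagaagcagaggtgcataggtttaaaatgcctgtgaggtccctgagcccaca
Gzmd (chr14:56132594-56132843, minus strand): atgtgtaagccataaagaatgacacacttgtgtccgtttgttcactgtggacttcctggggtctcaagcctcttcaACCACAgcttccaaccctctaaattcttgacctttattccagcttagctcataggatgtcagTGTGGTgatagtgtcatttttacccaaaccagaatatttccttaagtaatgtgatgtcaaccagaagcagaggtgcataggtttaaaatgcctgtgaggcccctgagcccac
Gzmg (chr14:56159580-56159829, minus strand): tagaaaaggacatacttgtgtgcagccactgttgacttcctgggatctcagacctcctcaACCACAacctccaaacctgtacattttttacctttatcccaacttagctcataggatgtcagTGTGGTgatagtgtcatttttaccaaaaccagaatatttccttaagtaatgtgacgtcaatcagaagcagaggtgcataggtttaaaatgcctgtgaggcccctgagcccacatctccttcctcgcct
Gzmf (chr14:56211408-56211657, minus strand): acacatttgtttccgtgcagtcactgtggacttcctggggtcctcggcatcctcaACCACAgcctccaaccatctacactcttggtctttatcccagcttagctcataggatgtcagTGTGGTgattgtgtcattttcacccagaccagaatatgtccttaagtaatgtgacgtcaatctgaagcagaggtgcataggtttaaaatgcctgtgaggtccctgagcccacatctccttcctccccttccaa

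Each of the 4 windows held these letters 2 times, 62 bases apart from start to start. The windows of Gzmc and Gzmb also held 2 matches, 66 and 59 bases apart. Of 32851 RefSeq promoter windows of the same length, 14.0% held at least 1 match on either strand and 1.27% held 2 or more. The T-box letters TCACACC or GGTGTGA (3.33% of windows), the STAT letters TTCNNNGAA (7.02%) and the AP-1 letters TGANTCA (6.75%) had no match in the 4 windows. The windows resemble each other: 54.0% of the 12-base words of Gzmd recurred in Gzme, and 26.8% in Gzmf. A match of letters is a description of the sequence and says nothing about binding in these cells.

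Transcripts of the 4 genes are also alike, which limits how well reads can be told apart. Of all 50-base words in the last 500 bases of the transcript, 20.4% of those of Gzmd, 18.2% of Gzme, 14.4% of Gzmg and 7.10% of Gzmf recurred in another gene of the family, against 0% for Gzmb and Gzmc. The split among Gzmd, Gzme, Gzmf and Gzmg is therefore less certain than their sum.

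The number of granzyme D to G molecules, on which the cells were chosen, varied widely among them. A granzyme-rich NK cell carried between 5 and 2016 UMIs of the 4 genes, with a median of 73 and quartiles of 23 and 166, and the median cell gave 1.04% of its UMIs to them. Of the 535 cells, 309 held at least 50 and 209 at least 100. Of all NK cells, 226 had no UMI of the 4 genes, and 88 had 1 to 4. Just outside the limit lay 15 cells with 3 and 15 with 4 UMIs, and just inside it 14 with 5 and 10 with 6.

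**Figure D1:**
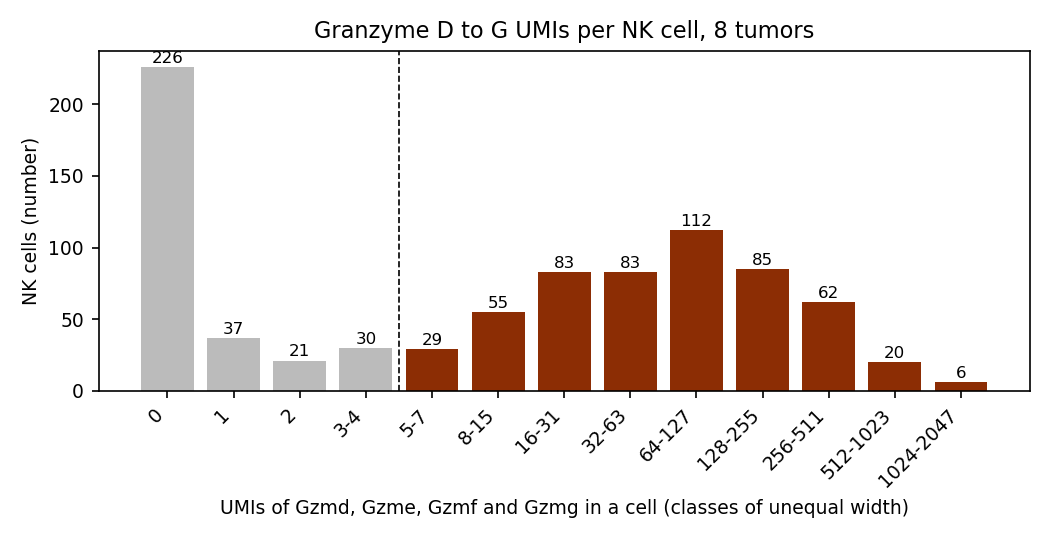
The bars count NK cells (y axis) of all 8 tumors by their UMIs of Gzmd, Gzme, Gzmf and Gzmg (x axis, classes of unequal width), with granzyme-rich cells in brown and a dashed line at the limit of 5. The tallest bar is that of the 226 NK cells without any such UMI, and among granzyme-rich cells that of 112 cells with 64 to 127 UMIs. Heights of classes of different width cannot be compared per UMI.

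The 4 genes were found together. Of the granzyme-rich cells, 187 held UMIs of all 4 genes, 183 of 3, 148 of 2 and 17 of 1. Gzmd was detected in 98.1% and Gzme in 93.8% of the cells, Gzmg in 63.0% and Gzmf in 46.0%. By UMIs of the 3′ ends of transcripts of similar length (909 to 964 bases), Gzmd supplied 45.8% of the molecules of the 4 genes, Gzmg 19.2%, Gzme 18.0% and Gzmf 17.1%. Gzmd was the leading gene in all 8 tumors, with 37.4 to 52.7% of these molecules, whereas the share of Gzmf ranged from 10.6 to 33.3% and that of Gzmg from 10.2 to 35.2%.

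Among 529 granzyme-rich cells thinned to 2000 UMIs each, Gzmd rose and fell with Gzme (Spearman's rho 0.741) and Gzmg (0.638) and less with Gzmf (0.304). These are descriptions over cells that share libraries and were chosen on the sum of these genes. Granzyme B went with perforin (rho 0.527), and hardly with Gzmg (-0.02) or Gzmf (-0.149).

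Levels are given in CPM, the UMIs of a gene summed over the cells of a class in a tumor and scaled to the same total UMIs. In granzyme-rich cells they lay between 4513 and 9322 CPM for Gzmd, with a median of 6646 over the 8 tumors. They lay between 1540 and 3886 for Gzme, 1466 and 5613 for Gzmf and 920 and 6063 for Gzmg. In the other NK cells of the same tumors Gzmd lay between 22.8 and 162 CPM. The spread among tumors was narrow for Gzmd and widest for Gzmg.

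Other cells were used to gauge free RNA. The macrophages, MC38 cells and T cells were chosen without any UMI of Ncr1, Klre1 and Klrb1c. Cells of these classes that took up such transcripts were left out, so the shares of these classes can understate free RNA. After thinning to 2000 UMIs, 97.9% of granzyme-rich and 16.1% of other NK cells held a UMI of the 4 genes, against 2.06% of macrophages and 1.95% of MC38 cells, which should lack them (median depths before thinning 7142, 5239.5, 5671.5 and 11019.5 UMIs). T cells came to 12.4% at a median depth of 4402 UMIs, and single T cells reached 171 UMIs of Gzmf and 137 of Gzmd. Both T cells and other NK cells were above the level of macrophages and MC38 cells chosen in this way.

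Genes next to the 4 that the rule did not use were counted in the same cells. Mcpt8, mast cell protease 8, otherwise a basophil gene, had 168 UMIs in 67 granzyme-rich cells from all 8 tumors and 2 UMIs in 2 other NK cells (18.1 to 63.0 CPM against 0 to 6.04 CPM, higher in 8 of 8 tumors). The ratio of its summed counts per UMI was 34.6, with an exact 95% interval of 9.44 to 288 that covers counting error only. Ctsg, cathepsin G, otherwise a neutrophil protease, had 348 UMIs in 22 granzyme-rich cells from 7 tumors and 0 UMIs in 314 other NK cells, at least 47.8-fold higher against a floor of 3 counts over the whole of the other NK cells. Both genes passed the low-count filter of edgeR through the granzyme-rich class alone, so no test is given for either. Of the Ctsg molecules 93.7% came from 13 cells in 2 tumors, saline replicate 3 and free R848 replicate 1, and 1 cell alone held 75.

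Gzmn, between Gzmg and Gzmf, had 53 UMIs in 42 granzyme-rich cells of all 8 tumors and 0 in other NK cells (at least 7.29-fold higher against the same floor), too few to be tested. On the far side of Mcpt8, the mast cell protease genes Mcpt1, Mcpt2, Mcpt4 and Mcpt9 and the chymase gene Cma2 had no UMI in either class, and Cma1 had 8 against 2. Gzmc and Gzmb, at the other end, were detected in most NK cells of both classes. Of the 22 cells with Ctsg, 86.4% also held Gzmf, against 44.2% of the 513 without it, but the cells with Ctsg were deeper (median 10930 against 7087 UMIs).

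**Figure D2:**
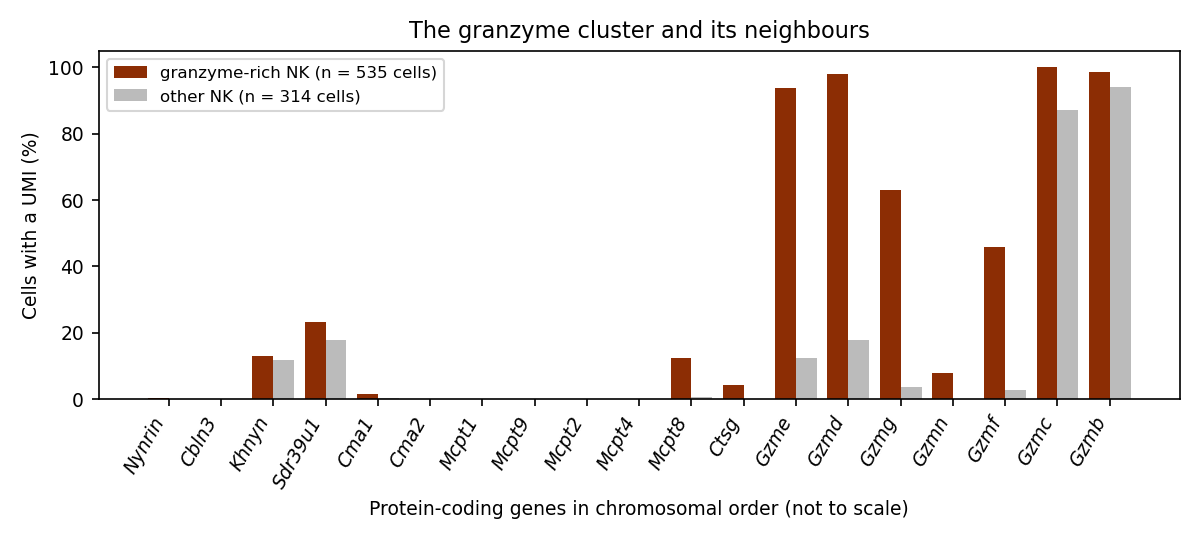
For each of 19 protein-coding genes in chromosomal order (x axis, not to scale), bars give the share of granzyme-rich NK cells (brown, n = 535 cells) and other NK cells (gray, n = 314 cells) with at least 1 UMI. From Mcpt8 through Gzmf bars are brown with little gray, and at Gzmc and Gzmb both classes are near the top.

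Of the granzymes outside the rule, Gzmc and Gzmb were higher in granzyme-rich cells and Gzma was not called. Of 7064 genes tested between granzyme-rich and other NK cells with the tumor as a block, 472 (6.68%) passed an adjusted p of 0.05 in edgeR's quasi-likelihood test, 175 (2.48%) higher and 297 (4.20%) lower in granzyme-rich cells. Of these, 23 of the higher and 64 of the lower genes met the low-count filter (30.5 CPM in 2 tumors) only in the class where they were higher. Such genes are described by their levels, with no test, and are named where a count over a gene list holds them. Of 21 other granzyme, perforin and granule genes tested, 5 were higher, none was lower, and the median log2 fold change was 0.12 against -0.01 over all genes tested. They were Gzmc, Prf1, Rab27a (which docks granules at the membrane), Cst7 (cystatin F, an inhibitor of granule cathepsins) and Gzmb.

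Gzmc reached 12316 to 17488 CPM (median 15705) in granzyme-rich cells and 5548 to 10849 CPM (median 7078) in other NK cells, and the classes did not overlap over the 8 tumors (log2 fold change 1.07 ± 0.09 (SE), adjusted p = 2.757e-08, higher in 8 of 8 tumors). Gzmb reached 4738 to 15003 CPM (median 6928) against 3005 to 9853 CPM (median 4791), ranges that overlapped (0.47 ± 0.10, adjusted p = 0.003992, higher in 7 of 8 tumors). Without the tumor as a block, Gzmb had an adjusted p of 0.295. Perforin (Prf1) reached 1870 to 4675 against 927 to 2615 CPM (0.76 ± 0.11, adjusted p = 6.998e-05, higher in 8 of 8).

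Gzma lay between 1170 and 10717 CPM (median 4066) in granzyme-rich and between 2114 and 8566 CPM (median 4032) in other NK cells (log2 fold change 0.02 ± 0.12, adjusted p = 0.9592), and its sign differed among the alternative settings. Its gene is outside the cluster.

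**Figure D3:**
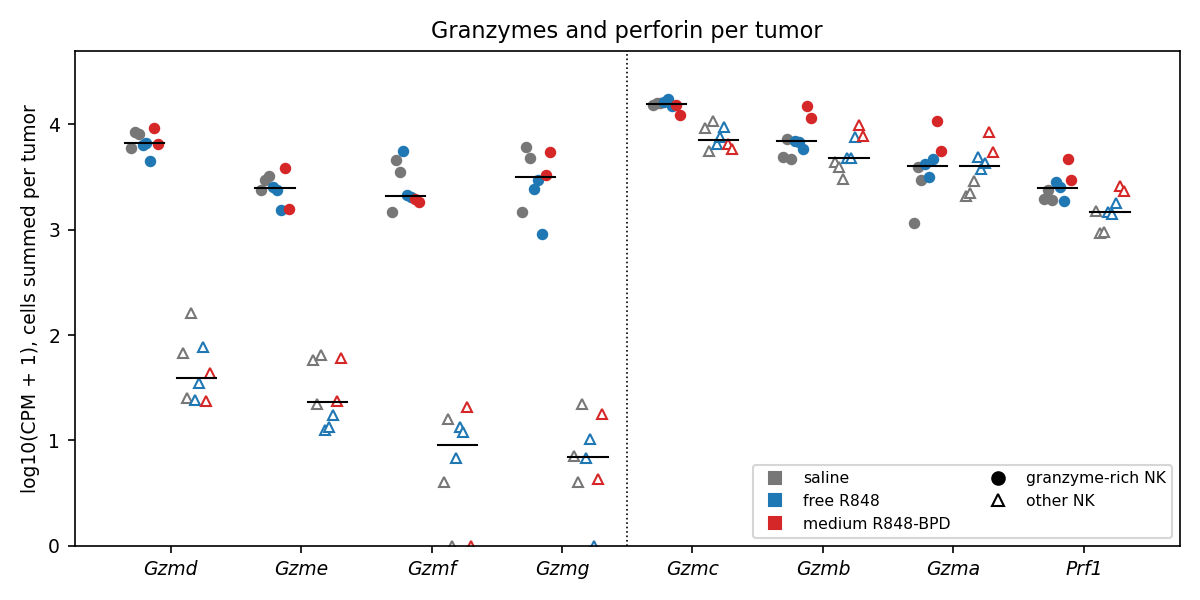
Each point is the log10(CPM + 1) of 1 tumor (y axis) for 8 genes (x axis) in granzyme-rich (circles) and other NK cells (triangles), colored by treatment, with a bar at the median of 8 tumors. Left of the dotted line are the genes of the rule. Right of it Gzmc separates the classes fully, Gzmb and Prf1 in part, and Gzma not at all.

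The cells matched their label as NK cells by genes outside the rule. Klrk1 (NKG2D), Klrd1 (CD94), Tyrobp and Fcer1g (signaling adaptors), Il2rb (the receptor chain for IL-2 and IL-15), the transcription factor Eomes, Txk and Nkg7 were detected in 77.2 to 99.1% of granzyme-rich cells. Of these 8, Tyrobp passed the test between the classes (log2 fold change 0.28 ± 0.08, adjusted p = 0.03075). Ncr1 (NKp46), Klre1 and Klrb1c (NK1.1), by which both classes were chosen, were detected in 76.3, 80.6 and 76.8% of granzyme-rich cells.

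Markers of other cell types were summed per tumor. The summed 14 macrophage markers, the C1q genes of the rule among them, lay between 204 and 1388 CPM (median 339) in granzyme-rich cells, 371 and 2356 CPM (median 1289) in other NK cells and 30182 and 41237 CPM in macrophages. Of 10 macrophage markers tested, 7 were lower in granzyme-rich cells and none was higher (median log2 fold change -1.52), and of the 5 that passed the filter in both classes 4 were lower. Cd68, Csf1r and Fcgr1 passed it through the other NK cells alone. The 15 T cell markers summed to 390 to 618 CPM in granzyme-rich cells, 432 to 774 CPM in other NK cells and 2998 to 7626 CPM in T cells. These include the Cd3 genes, which the rule limits and which define the T cells. Of the T cell markers outside the rule, Trbc2, a T cell receptor beta constant gene, lay between 82.4 and 151 CPM in granzyme-rich cells (34.8% of cells) and Lat between 14.7 and 39.1 CPM (20.2% of cells). Trac, the alpha constant gene, lay between 0 and 2.15 CPM, and Cd5 and Foxp3 were at 0.

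The B cell markers summed to 87.9 to 507 CPM (median 297) in granzyme-rich cells and 59.5 to 248 CPM (median 131) in other NK cells, with Cd79a, Ms4a1 and Igkc at 0 in both. Ighm, the immunoglobulin mu chain, was the B cell gene tested and was higher in granzyme-rich cells (log2 fold change 0.91 ± 0.15, adjusted p = 0.0002789). The mast cell and basophil markers, Mcpt8 among them, summed to 94.6 to 154 CPM against 49.0 to 205 CPM, with Ms4a2 and Mcpt4 at 0 in both. Dendritic cell markers summed to 47.5 to 135 CPM against 93.1 to 335 CPM, neutrophil markers to 0 to 125 against 0 to 68.8 CPM, MC38 markers to 45.6 to 307 against 49.4 to 442 CPM, and markers of ILC2 and ILC3 to 27.3 to 56.5 against 36.8 to 113 CPM.

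Because macrophage markers moved with the classes, the test was repeated on cells with no C1q UMI and at most 2 UMIs of Csf1r, Lyz2, Apoe, Cd74, Ctsk and Acp5, a setting chosen after seeing the data. It called 298 of 5029 genes, 138 higher and 160 lower. Granzyme-rich cells were also deeper than other NK cells (median 7142 against 5239.5 UMIs), and among cells of 2000 to 15000 UMIs 410 genes were called. Some lists and single genes were also recounted under these settings, as given below. Beyond such recounts, the part of other cells' RNA and of depth in single results was not tested.

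The genes named next had the largest differences among abundant called genes with the same sign in all 8 tumors. Dsc2, the desmosomal cadherin desmocollin 2, lay between 29.3 and 132 CPM in granzyme-rich cells and between 0 and 3.26 CPM in other NK cells although 11.8% of granzyme-rich cells held a UMI of it. With 309 against 2 UMIs it also passed the filter through 1 class, so the ratio of 63.7 is given with its exact 95% counting interval, 17.5 to 529, and no test. Cdh1, E-cadherin, which binds the inhibitory receptor KLRG1, lay between 36.6 and 242 CPM against 8.50 and 69.4 CPM (1.97 ± 0.22, adjusted p = 1.81e-06). Cd55, decay-accelerating factor, which shields cells from complement, lay between 110 and 407 CPM (median 283) against 15.1 and 76.7 CPM (median 51.2; 2.41 ± 0.20, adjusted p = 2.757e-08). Dsc2 and Cd55 did not overlap between the classes, and Cdh1 did.

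Spp1, osteopontin, a secreted phosphoprotein, was the most abundant of these genes. It reached 1840 to 4084 CPM (median 2451) in granzyme-rich cells, in 88.8% of them, and 367 to 875 CPM (median 628) in other NK cells, with no overlap (log2 fold change 2.11 ± 0.14, adjusted p = 1.247e-09, higher in 8 of 8 tumors). Macrophages held 232 to 4690 CPM and MC38 cells 1191 to 1978 CPM of Spp1, and T cells had a median of 104 CPM. The granzyme-rich level lay above that of MC38 cells in 7 of 8 tumors.

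Other genes of this set were Avil (advillin, an actin-binding protein; 2.77 ± 0.27), Ifitm1 (2.23 ± 0.24), Sh2d1b2 (EAT-2B, an adaptor of SLAM receptors; 2.21 ± 0.31) and Havcr2 (TIM-3; 2.0 ± 0.17), as log2 fold changes with SE. Each was called with every tumor left out in turn. The filter was passed through the granzyme-rich class alone by Mgat3 (a glycosyltransferase; 29.3 to 81.4 against 0 to 21.2 CPM), Rgs8 (a regulator of G protein signaling; 17.4 to 86.4 against 0 to 28.2 CPM), Slc27a6 (a fatty acid transporter; 22.0 to 103 against 0 to 28.2 CPM) and Alox5 (5-lipoxygenase; 28.6 to 93.8 against 6.04 to 34.4 CPM), so no test is given for them.

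Receptors moved in both directions. Of 29 NK identity and activating receptor genes tested, 4 were higher (Sh2d1b2, Klrg1, Fcgr3 and Tyrobp) and 5 lower, with a median log2 fold change of -0.10. Klrg1, although an inhibitory receptor, was counted in this list and not among the inhibitory receptors. Of the lower genes, Il12rb2, Il18r1 and Il18rap passed the filter in both classes, and Fcgr4 and Crtam in the other NK cells alone. Of 18 inhibitory and checkpoint receptor genes, Havcr2, Cd96 and Tnfrsf9 were higher and Nt5e, Tnfrsf18 and Klra4 lower. Nt5e was called in 7 of 21 alternatives and Tnfrsf18 in 14 of 21.

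Klrg1, the inhibitory receptor for cadherins, lay between 95.2 and 440 CPM (median 290) against 21.9 and 136 CPM (median 77.1; log2 fold change 2.01 ± 0.21, adjusted p = 8.474e-07, higher in 7 of 8 tumors). Its ligand Cdh1 was thus among the genes higher in the same cells. Havcr2 lay between 65.1 and 227 CPM (median 141) against 16.4 and 59.5 CPM (median 36.5), with no overlap (adjusted p = 2.757e-08).

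Residency genes did not move as 1 group. Of 16 genes of tissue residency and type 1 innate lymphoid cells, 3 were higher and 7 lower. Itga1 (CD49a, a collagen-binding integrin) lay between 139 and 595 CPM against 45.6 and 198 CPM (log2 fold change 1.60 ± 0.19, adjusted p = 4.014e-06, higher in 7 of 8 tumors), and Gpr34 and Ccr2 were also higher. Of the lower genes, Il21r, Socs3, Ltb and Xcl1 passed the filter in both classes. Cxcr3, Ahr and Il7r passed it through the other NK cells alone, so their calls are no support. Ahr, the aryl hydrocarbon receptor, had 26 against 55 UMIs and Il7r 34 against 47. Cxcr3 had 3 against 28 (ratio 0.0442, exact 95% counting interval 0.0086 to 0.143). Among cells low in other-cell markers, 3 of 12 genes of the list were higher and 2 lower.

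Genes of circulating mature NK cells were lower in the main: 8 of 15 tested were lower and 1 (Ctsd, cathepsin D) higher, with a median log2 fold change of -0.88. Itgam (CD11b; -1.99 ± 0.40), Itgb7 (-1.11 ± 0.15) and Ccl5 (-2.47 ± 0.31) were among those lower, as log2 fold changes with SE. Among cells low in other-cell markers, 6 of 12 were lower and 1 higher. Klrg1, which was higher, was not part of this list.

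Among abundant genes with the same sign in all tumors, Cd2, an adhesion receptor of T and NK cells, lay between 37.9 and 71.8 against 117 and 275 CPM (log2 fold change -1.58 ± 0.14, adjusted p = 5.563e-08). Others that fell were Sla (an adaptor that damps antigen receptor signaling; -2.24 ± 0.23), Cd97 (an adhesion receptor; -1.98 ± 0.15), Limd2 (-1.87 ± 0.15) and Stk10 (a kinase of lymphocytes; -1.67 ± 0.20). Cxcr4, the receptor for CXCL12, lay between 1.85 and 21.5 CPM (median 6.10) against 30.6 and 189 CPM (median 54.3), with no overlap. Like Ipcef1 (median 10.6 against 40.8 CPM) and Emid1 (22.8 against 59.3 CPM), it passed the filter through the other NK cells alone, so no test is given for these 3 genes.

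The remaining 4 of the 12 genes that fell most are abundant in macrophages or other antigen-presenting cells: H2-Aa (-2.26 ± 0.29) and Cd74 (-1.97 ± 0.28) of MHC class II, the lysosomal protease gene Lgmn (median 12.3 against 60.3 CPM) and Tmem176b (19.3 against 61.7 CPM), the last 2 with no test on the same ground. Their medians in macrophages were 531, 567, 1909 and 129 CPM. In granzyme-rich cells H2-Aa lay between 0 and 57.7 CPM and in other NK cells between 17.0 and 205 CPM.

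Of 16 cytokine genes tested, Spp1 was higher and 6 were lower, with a median log2 fold change of -0.74. Of the lower genes, Ccl5, Ccl4, Ltb, Xcl1 and Ifng passed the filter in both classes, and Tnfsf14 (14 against 46 UMIs) in the other NK cells alone. Xcl1, which attracts cross-presenting dendritic cells, lay between 7.33 and 696 CPM (median 313) against 42.3 and 1441 CPM (median 554; -0.95 ± 0.16, adjusted p = 0.0003074, lower in 7 of 8 tumors). Ifng, interferon-gamma, lay between 21.3 and 68.4 CPM (median 34.7) against 39.8 and 226 CPM (median 58.0; -0.80 ± 0.23, adjusted p = 0.03228, lower in 7 of 8). The ranges overlapped for both. Among cells low in other-cell markers 1 of 10 cytokine genes was higher and 2 were lower, and without the tumor as a block 1 of 9 was higher and 2 were lower. Ccl4 was not called with no C1q UMI or among cells low in other-cell markers.

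Transcription factor genes of lymphocyte differentiation were lower or not called: 9 of 24 were lower and none was higher (median log2 fold change -0.44). They were Rora, Tcf7, Zeb2, Nr4a1, Nr4a2, Nr4a3, Ikzf3, Ets1 and Bhlhe40. Tcf7 (TCF-1, of early and memory-like lymphocytes) lay between 11.4 and 75.5 CPM (median 48.2) against 51.0 and 169 CPM (median 85.1; -1.19 ± 0.22, adjusted p = 0.0009758, lower in 8 of 8 tumors). The T-box factors did not pass, with Eomes at 0.15 ± 0.12 (adjusted p = 0.5739) and Tbx21 at -0.47 ± 0.16 (adjusted p = 0.09103). Among cells low in other-cell markers 8 of 20 were lower.

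Genes of the secretory pathway were higher without exception among those called. Of 26 genes of this pathway and the unfolded protein response, 12 were higher and none was lower, with a median log2 fold change of 0.36. They were mostly chaperones and folding enzymes of the endoplasmic reticulum: Calr, Hspa5, Hsp90b1, Hyou1, Sdf2l1, Manf, P4hb, Pdia3, Pdia4 and Pdia6, with the translocation and signal peptidase genes Ssr2 and Sec11c. Calr, calreticulin, lay between 1092 and 1602 CPM (median 1278) against 480 and 1205 CPM (median 1002; 0.58 ± 0.11, adjusted p = 0.0009078, higher in 8 of 8 tumors). Among cells low in other-cell markers 9 of 26 were higher, against other NK cells with no UMI of granzymes D to G 6 of 26, and without the tumor as a block 3 of 24.

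Interferon-stimulated genes were lower in part: 15 of 49 were lower, 1 of them (Oasl2) filtered in through the other NK cells alone, and Isg20 was higher (median log2 fold change -0.53). Ifitm1, an interferon-induced transmembrane protein gene named above as higher, was not part of this list. Irf7, a master regulator of type I interferon genes, fell by 1.04 on the log2 scale (SE 0.22, adjusted p = 0.003591). Irf7 was called in 21 of 21 alternatives. In cells low in other-cell markers 3 of 40 interferon-stimulated genes were lower and none was higher, with a median of -0.22.

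The classes overlapped in proliferation genes. Of 45 cell cycle genes 3 were lower (Ccnd2, Ccnd3 and Mcm7) and none was higher. After thinning to 2000 UMIs, 36.3 to 65.9% (median 44.7%) of granzyme-rich and 20.7 to 63.3% (median 48.5%) of other NK cells held a UMI of Mki67 or Top2a, a mean difference of 1.49 ± 18.7 percentage points (SD, n = 8 tumors), with granzyme-rich cells higher in 4 of 8 (two-sided exact permutation test, p = 0.8125). Without thinning the tumors ranged from 47.6 to 83.3% and from 40.0 to 80.4%.

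**Figure D4:**
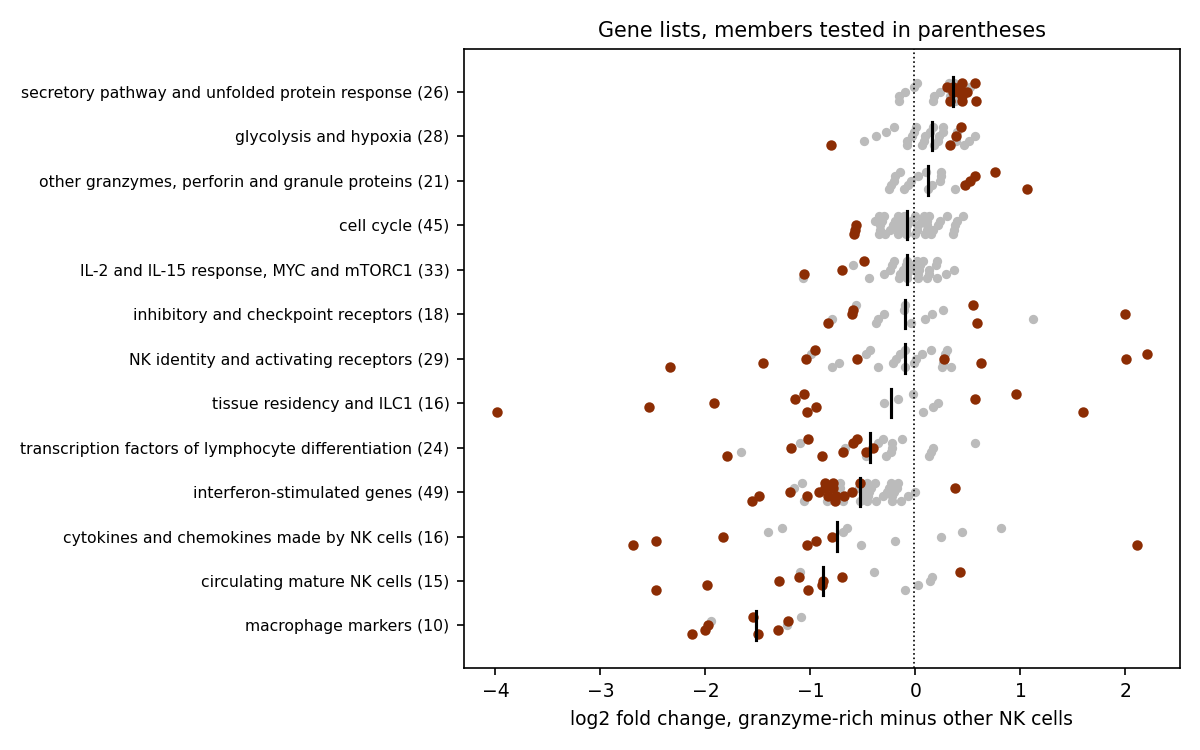
Each point is the log2 fold change of 1 gene (x axis, granzyme-rich minus other NK cells) in each of 13 gene lists (y axis, number of genes tested in parentheses), brown where the adjusted p was under 0.05 and gray otherwise, with genes that passed the filter in 1 class alone included. Black bars are list medians and the dotted line is the median of all genes, and the secretory list sits right of it (median 0.36) while the macrophage, circulating and cytokine lists sit left of it (-1.52, -0.88 and -0.74).

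The question of treatment was first put to cell numbers. Granzyme-rich cells were 61.1, 50 and 70.1% of the NK cells of saline tumors, 64.3, 55.9 and 46.2% with free R848 and 76.6 and 51.2% with medium R848-BPDs. The means were 60.4 ± 10.1% (SD, n = 3), 55.4 ± 9.07% (n = 3) and 63.9 ± 17.9% (n = 2), and the groups overlapped. Two-sided exact permutation tests gave p = 0.6 for medium R848-BPDs against free R848 (difference 8.48 percentage points), 0.6 for free R848 against saline (-4.96) and 0.8 for medium R848-BPDs against saline (3.51), with adjusted p = 0.8 for all 3. With 3 against 3 tumors these tests cannot go below 0.1, and with 2 against 3 not below 0.2.

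Per tumor, 41 to 188 NK cells stood behind these shares. The 2 prodrug tumors differed most, with 144 of 188 NK cells granzyme-rich in replicate 1 (76.6%, 95% exact binomial interval 69.9 to 82.4%) and 21 of 41 in replicate 2 (51.2%, 35.1 to 67.1%). These intervals cover counting error only.

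As a share of all kept cells, granzyme-rich NK cells came to 6.41, 3.19 and 7.60% with saline, 5.30, 4.72 and 2.69% with free R848 and 10.6 and 1.72% with medium R848-BPDs. The means were 5.73 ± 2.28%, 4.24 ± 1.37% and 6.15 ± 6.27%, and no pair differed beyond the spread (two-sided exact permutation tests, p = 0.8 for medium R848-BPDs against free R848, 0.4 for free R848 against saline and 1 for medium R848-BPDs against saline). The part of their UMIs given to granzymes D to G was 1.13, 2.21 and 1.97% with saline, 1.69, 1.42 and 0.900% with free R848 and 1.85 and 1.54% with medium R848-BPDs, and overlapped between all groups.

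Within granzyme-rich cells, 23 of 7548 genes (0.305%) differed between medium R848-BPDs and free R848, 17 (0.225%) higher and 6 (0.0795%) lower. The count rested on single tumors: it was 1, 4 and 7 without free R848 replicates 1, 2 and 3, 25 and 4 without prodrug replicates 1 and 2, and 38, 18 and 51 without saline replicates 1, 2 and 3. Medium R848-BPDs against saline gave 43 genes (0.570%), 31 (0.411%) higher and 12 (0.159%) lower. That count was 26, 21 and 30 without free R848 replicates 1, 2 and 3, 31 and 19 without prodrug replicates 1 and 2, and 29, 28 and 79 without saline replicates 1, 2 and 3. The 2 comparisons share the prodrug tumors. Of these calls, 5 of the 17 higher against free R848, and 6 of the 31 higher and 1 of the 12 lower against saline, passed the low-count filter only through the group where they were higher.

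Free R848 against saline gave 0 of 7548 genes in edgeR's test and 0 with DESeq2, with 292 genes at an unadjusted p under 0.05. Without saline replicate 1, 11 genes were called, all lower.

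Granzyme B was higher with the prodrug in both comparisons. Gzmb reached 4859, 7278 and 4738 CPM in granzyme-rich cells with saline, 7010, 6846 and 5836 CPM with free R848 and 15003 and 11400 CPM with medium R848-BPDs. Both prodrug tumors lay above all others (log2 fold change 1.01 ± 0.18 (SE) against free R848, adjusted p = 0.01922; 1.21 ± 0.18 against saline, adjusted p = 0.002138). Against free R848 the adjusted p was above 0.05 when any free R848 tumor or prodrug replicate 1 was left out and with no C1q UMI, and against saline without prodrug replicate 1.

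Gzma reached 1170, 3909 and 2990 CPM with saline, 4224, 3137 and 4665 CPM with free R848 and 10717 and 5620 CPM with medium R848-BPDs. Both prodrug tumors were highest, and the difference from saline passed (1.59 ± 0.33, adjusted p = 0.03719) while that from free R848 did not (1.04 ± 0.33, adjusted p = 0.3328). The call against saline held in 12 of 21 alternatives, and was lost without any free R848 tumor or prodrug replicate 1, with DESeq2 (adjusted p = 0.228), with the replicate block, with only both groups fitted, with no C1q UMI and with the same number of cells per tumor. Perforin showed 0.87 ± 0.20 against saline (adjusted p = 0.05356), and Gzmc -0.21 ± 0.14 (adjusted p = 0.7398). Serpinb6b, of the serpins that restrain granzymes, reached 407, 459 and 368 CPM with saline, 506, 402 and 482 CPM with free R848 and 748 and 1004 CPM with medium R848-BPDs (1.05 ± 0.19 against saline, adjusted p = 0.01045). That call was lost without prodrug replicate 2, with only both groups fitted and with no C1q UMI.

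For granzymes D to G, which chose the cells, no test was made. Gzmd was 7545 ± 1385 CPM (SD) with saline, 5847 ± 1173 CPM with free R848 and 7951 ± 1939 CPM with medium R848-BPDs. In the same order of groups Gzme was 2878 ± 432, 2143 ± 528 and 2723 ± 1644 CPM, Gzmf 3184 ± 1578, 3265 ± 2035 and 1898 ± 83.6 CPM, and Gzmg 4113 ± 2366, 2099 ± 1055 and 4375 ± 1480 CPM. The prodrug group had the highest mean for Gzmd and Gzmg and the lowest for Gzmf.

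Of the chemokine genes, Xcl1 was lower and Ccl5 higher with the prodrug in both comparisons. Ccl1 had 92 UMIs with saline and 4 with medium R848-BPDs, and is given no test, since it passed the filter through the saline tumors alone. Xcl1 reached 696, 446 and 211 CPM with saline, 261, 425 and 364 CPM with free R848 and 44.3 and 7.33 CPM with medium R848-BPDs, in 53.9%, 42.1% and 10.9% of granzyme-rich cells. Both prodrug tumors lay below all others (-3.17 ± 0.47 against free R848, adjusted p = 0.01099; -3.58 ± 0.46 against saline, adjusted p = 0.0008841). Over both prodrug tumors Xcl1 had 63 UMIs. In prodrug replicate 2, with 21 granzyme-rich cells and 136487 UMIs in all, its 7.33 CPM rest on very few molecules. The difference from saline was called under every alternative, and that from free R848 was lost without prodrug replicate 1 and with the same number of cells per tumor. Ccl5, a chemokine for T cells and monocytes, reached 7.30, 9.11 and 57.3 CPM with saline, 27.8, 4.02 and 8.68 CPM with free R848 and 126 and 154 CPM with medium R848-BPDs (3.07 ± 0.58 against free R848, adjusted p = 0.02319; 2.44 ± 0.53 against saline, adjusted p = 0.04279), and was 1060 and 985 CPM in the macrophages of the prodrug tumors. With only both groups fitted, Ccl5 was not called against saline. Leaving out 1 tumor at a time, Ccl5 was called in 3 of 8 fits against free R848 and 2 of 8 against saline, and in neither comparison without prodrug replicate 1 or 2.

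S100a4, Cdh1 and Itgb1 were lower with the prodrug in both comparisons. S100a4, a calcium-binding protein of motile cells, reached 422, 498 and 616 CPM with saline, 501, 306 and 317 CPM with free R848 and 127 and 58.6 CPM with medium R848-BPDs (-2.23 ± 0.29 against saline, adjusted p = 0.0008841; -1.79 ± 0.29 against free R848, adjusted p = 0.01183). Cdh1 reached 144, 222 and 242 CPM, then 155, 143 and 104 CPM, then 43.6 and 36.6 CPM in the same order of groups (-2.25 ± 0.31 against saline, adjusted p = 0.00133). Itgb1, the beta1 integrin chain that pairs with CD49a, fell to 666 and 659 CPM from 1063 to 1403 CPM in the other 6 tumors (-0.97 ± 0.17 against saline, adjusted p = 0.01071). Prodrug tumors were lowest for all 3 genes. In prodrug replicate 2, with 136487 UMIs over its granzyme-rich cells, the values of S100a4 and Cdh1 rest on few molecules. Leaving out 1 tumor at a time, S100a4, Cdh1 and Itgb1 were called in 8, 7 and 6 of 8 fits against saline and in 6, 4 and 2 of 8 against free R848. Against free R848, Cdh1 and Itgb1 were also lost with no C1q UMI and among cells low in other-cell markers, and Itgb1 with the replicate block and among cells of 2000 to 15000 UMIs. Against saline, Itgb1 was also lost with only both groups fitted.

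Tcf7 reached 75.5, 36.4 and 74.0 CPM with saline, 58.6, 44.3 and 52.1 CPM with free R848 and 11.4 and 14.7 CPM with medium R848-BPDs (-2.45 ± 0.39 against saline, adjusted p = 0.003281). Tmsb15a, a thymosin that binds actin monomers, reached 51.1 to 144 CPM in the 6 saline and free R848 tumors and 16.4 and 0 CPM in the prodrug tumors (-2.73 ± 0.52 against saline, adjusted p = 0.02002). Tcf7 and Tmsb15a were called in 7 and 5 of 8 such fits. Both genes passed the low-count filter through the saline and free R848 tumors and reached its limit in neither prodrug tumor. Over the prodrug cells Tcf7 had 18 UMIs and Tmsb15a 23, so the size of these differences is uncertain. Cdh1 was also among the genes higher in granzyme-rich than in other NK cells, and Tcf7 among those lower.

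Ctla4 and Il12rb1 were higher than with saline. Ctla4, a checkpoint receptor known mainly from T cells, reached 20.7, 36.4 and 11.1 CPM with saline, 64.5, 52.3 and 26.0 CPM with free R848 and 116 and 190 CPM with medium R848-BPDs, and was detected in 11.7%, 23.6% and 50.3% of the cells (2.68 ± 0.37 against saline, adjusted p = 0.00133; 1.40 ± 0.34 against free R848, adjusted p = 0.1136). Il12rb1, a chain of the receptor for IL-12, reached 63.3, 94.2 and 68.4 CPM, then 123, 100.6 and 104 CPM, then 193 and 198 CPM (1.40 ± 0.24 against saline, adjusted p = 0.007323). The prodrug tumors lay above all others for both. With the same number of cells per tumor, Il12rb1 was no longer called. Ctla4 was called in 8 of 8 fits that left out a tumor, and Il12rb1 in 7, not without prodrug replicate 1.

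Of the other genes named by size, Serpine2 (an inhibitor of serine proteases; 1.98 ± 0.30 against free R848, adjusted p = 0.01099), Arrb1 (beta-arrestin 1; 2.40 ± 0.47), Dgat1 (triglyceride synthesis; 1.48 ± 0.24), Mxd1 (a partner of MAX; 1.62 ± 0.34), Ktn1, Gp49a and Trp53i11 were higher than with free R848. Among cells low in other-cell markers Serpine2, Arrb1, Gp49a and Trp53i11 were no longer called. Arrb1 and Gp49a were lost with no C1q UMI, and Arrb1, Gp49a, Ktn1 and Mxd1 among cells of 2000 to 15000 UMIs. Dgat1 was lost with the same number of cells per tumor. Of the 8 fits that left out a tumor, Serpine2 was called in 5, Dgat1 in 4, Arrb1, Ktn1 and Trp53i11 in 3, and Mxd1 and Gp49a in 2, and none of them without prodrug replicate 1. Ly6a (Sca-1, interferon-inducible; 2.02 ± 0.31), Ddit3 (CHOP; 1.99 ± 0.44), AA467197 (1.93 ± 0.29), Tsc22d3 (GILZ, glucocorticoid-inducible; 1.89 ± 0.37) and Plin2 (a coat protein of lipid droplets; 1.72 ± 0.37) were higher, and Nrgn (-2.06 ± 0.29), Ifi203 (-1.43 ± 0.29) and Hist1h1b (-1.38 ± 0.29) lower, than with saline. Ly6a, Nrgn, Plin2, Ifi203 and Hist1h1b were not called with the same number of cells per tumor. Tsc22d3, Ddit3, Ifi203 and Hist1h1b were lost with only both groups fitted, and Ddit3, Plin2, Ifi203 and Hist1h1b with no C1q UMI. Ddit3, Ifi203 and Hist1h1b were also lost among cells low in other-cell markers. Here Ly6a, AA467197 and Nrgn were called in 7 of 8 such fits (lost without prodrug replicate 1), Tsc22d3 in 6, Ifi203 in 4, Plin2 in 3, Hist1h1b in 2 and Ddit3 in 1.

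**Figure D5:**
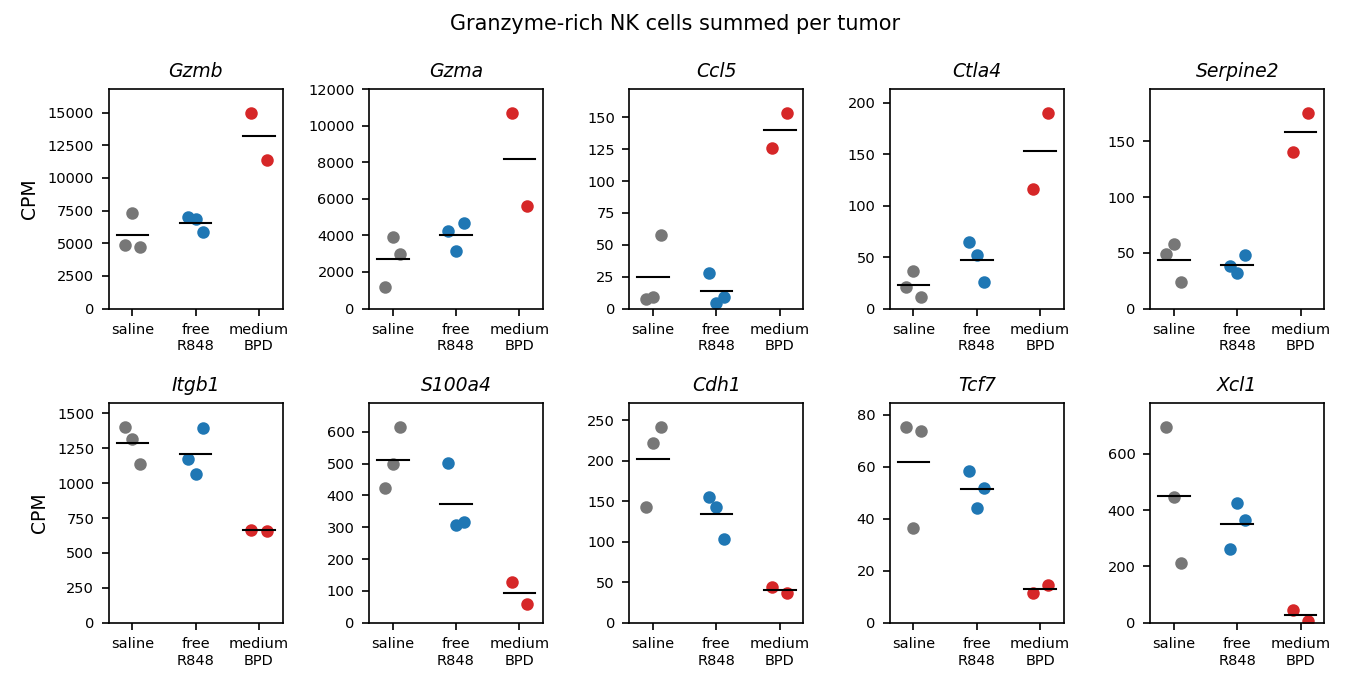
Each point is the CPM of 1 tumor (y axis, linear from 0, own scale per panel) summed over its granzyme-rich NK cells, for 10 genes in saline (n = 3), free R848 (n = 3) and medium R848-BPD tumors (n = 2), with bars at group means. In the top row the 2 prodrug tumors lie above the others, and in the bottom row below them.

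Saa3, S100a8 and S100a9, chosen after their values were seen, had no UMI in granzyme-rich cells of saline tumors and passed the low-count filter through the prodrug tumors, so no test is given for them. Saa3, an acute-phase protein, had 0 CPM with saline, 4.40, 10.1 and 0 CPM with free R848 and 74.4 and 73.3 CPM with medium R848-BPDs, at least 41.9-fold higher against a floor of 3 counts over the saline cells, while macrophages of the same prodrug tumors held 8962 and 14972 CPM. S100a8 and S100a9, neutrophil genes, came from 4 of 165 prodrug cells each, and 1 cell held 62 of the 71 UMIs of S100a8. The summed neutrophil markers lay between 0 and 14.7 CPM in granzyme-rich cells of the saline and free R848 tumors and between 109 and 125 CPM in those of the prodrug tumors. The part of RNA from other cells in these values was not tested.

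Whether the response differed between the NK classes was tested as an interaction of class and treatment, medium R848-BPDs against free R848. It gave 0 of 7064 genes in edgeR's test and 0 with DESeq2, with 320 at an unadjusted p under 0.05. For Gzmb the interaction was 0.40 ± 0.25 on the log2 scale (SE, adjusted p = 0.9881). For Xcl1 it was 0.01 ± 0.92 (adjusted p = 1), an error too wide to show a like response in both classes. Leaving out single tumors gave 0 to 2 genes.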

How the data were processed

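Single-cell RNA-seq libraries of 8 MC38 tumors were analysed from tables of raw UMI counts that the authors deposited (24787 genes, reads demultiplexed with bcl2fastq and the mm10 genome, per the labels; the aligner and the gene annotation are not given in the sources used here). Cells were filtered and classed by the counts given in the report, and T cells, macrophages and MC38 cells by raw counts of marker genes. Counts were summed per tumor and class. Between NK classes, edgeR's quasi-likelihood test (edgeR 4.0.16, R 4.3.3) was fitted with TMM factors, the low-count filter of edgeR and the tumor as a block. Treatments were compared within granzyme-rich cells in 1 fit over the 8 tumors. P-values were adjusted by Benjamini-Hochberg over all genes tested, with a threshold of 0.05. The procedure was also run on simulated counts with planted changes, in which tumors differed only by depth and random spread. Its outcome is not given here and is no support for single calls. P-values measure the spread between tumors.

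Named genes were the 12 (treatments: 8) largest fold changes in each direction among called genes whose mean log2 CPM reached 5, with the same sign in every tumor (treatments: no overlap), up to 4 called genes of each list, or its 2 most abundant genes where none was called, and the genes of the rule. Of these, those not described in the text were left out for length. The members and the 20 gene lists were chosen with earlier results of these data known. For shares, exact permutation tests were run, two-sided (scipy 1.17.1). Exact binomial intervals (95%) and floors of 3 counts cover counting error only. The alternatives comprised RLE size factors, DESeq2 1.42.0, no low-count filter, other limits for the classes, depth limits, no doublets and leaving out each tumor. The settings with low other-cell markers, no Cd3 UMI, or other NK cells without any UMI of granzymes D to G were chosen after seeing the data. Genes to which DESeq2 gave no adjusted p were not counted as lost. Promoter sequences are from RefSeq (GRCm38.p6).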

Additional observations from a re-analysis of the deposited data

Results flagged for a closer look

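In 27 sets of 8 tumors, 1 per gene, the difference between granzyme-rich and other NK cells on the log2(CPM + 1) scale was checked for a tumor far from the others, and 4 sets held one by Dixon's 95% limit, where chance gives about 1 in 20. The difference for Avil was 8.43 in medium R848-BPD replicate 2 and 1.05 to 4.5 in the others. That for Havcr2 was 3.0 in saline replicate 3 and 1.52 to 2.19 in the others. That for Cd74 was -4.47 in free R848 replicate 2 and -2.36 to -0.683 in the others. That for Emid1 was -6.01 in saline replicate 3 and -2.33 to -0.355 in the others. In all 4 the outlying tumor had the sign of the other 7.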

How the results depend on the processing

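Between granzyme-rich and other NK cells, 472 genes became 715 without the low-count filter, 295 with DESeq2, 298 without the tumor as a block, 298 among cells low in other-cell markers and 352 to 534 leaving out 1 tumor. Of the called genes, 76 were followed through the alternatives, and Xcl1, Ifng and Tyrobp were not among them. All 76 kept their direction in every alternative that gave a value, and 37 of the 54 that passed the filter in both classes were called in each. Gzma, not called, turned negative without medium R848-BPD replicate 1 (-0.0214), with a limit of 3 UMIs (-0.0747), with no C1q UMI (-0.0904), among cells low in other-cell markers (-0.227) and against NK cells with no UMI of granzymes D to G (-0.0244), and ranged from -0.0927 (without saline replicate 2) to 0.161 leaving out 1 tumor. Leaving out 1 tumor, Col6a2 ranged from -1.60 to 0.0569 (without free R848 replicate 2), and S100a9 to -0.63 among cells of 2000 to 15000 UMIs. The causes were not tested.

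For medium R848-BPDs against free R848, 23 genes became 131 without the filter, 61 with only both groups fitted, 15 with no C1q UMI, 12 among cells of 2000 to 15000 UMIs, 12 among cells low in other-cell markers, 54 with the same number of cells per tumor and 1 to 51 leaving out 1 tumor, and 0 of 19 called named genes were called in every alternative. Against saline, 43 became 129 without the filter, 17 with only both groups, 24 with no C1q UMI and 19 to 79 leaving out 1 tumor, and Xcl1, S100a4 and Ctla4 were called in every alternative that gave them an adjusted p. Free R848 against saline gave 54 genes without the filter, 2 with the same number of cells and 0 to 11 leaving out 1 tumor. The interaction gave 20 genes without the filter, 3 with granzymes D to G at 0.1% of UMIs or more, 1 among cells low in other-cell markers and 0 to 2 leaving out 1 tumor.

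Replicate numbers were shared between groups, and the deviations of same-numbered tumors correlated at -0.177 to 0.136 over 7548 genes. With so few tumors per group, the deviations within a group depend on each other. These correlations therefore cannot decide whether the numbers pair the samples. The replicate block gave 53 genes for medium R848-BPDs against free R848.

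Shares rested on single tumors. As a share of NK cells, medium R848-BPDs minus free R848 ranged from -4.21 (without medium R848-BPD replicate 1) to 21.2 percentage points, free R848 minus saline from -10.2 to -0.124, and medium R848-BPDs minus saline from -9.18 (without medium R848-BPD replicate 1) to 16.2, with -1.68 without saline replicate 2. As a share of all cells these ranged from -2.52 to 6.34, -2.77 to -0.561 and -4.01 to 4.85, with -0.856 without saline replicate 2 and -0.138 for medium R848-BPDs minus saline in thinned cells. With 21 to 144 granzyme-rich cells per tumor, genes of few UMIs could not be compared.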

Other observations

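Between granzyme-rich and other NK cells, further gene lists gave the following counts. Of 28 glycolysis and hypoxia genes, Eno1, Gpi1 and Ldha were higher and Vegfa was lower (median log2 fold change 0.15). Eno1 was called in 11 of 21 alternatives and Gpi1 in 15 of 21. Of 33 genes of the response to IL-2 and IL-15, MYC and mTORC1, Myc, Pim1 and Mcl1 were lower and none was higher (median -0.08). In cells low in other-cell markers 1 of 31 was lower, with DESeq2 1 of 33, and Myc was called in 13 of 21 alternatives. Of the other marker lists, 1 of 4 T cell genes tested (Lat) and 2 of 3 dendritic cell genes (Ccr7, which passed the filter through the other NK cells alone, and Itgax; list median -1.46) were lower, no test is given for the mast cell and basophil gene Mcpt8, and none of 2 neutrophil, 3 MC38 and 1 ILC2 and ILC3 genes passed.

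Within granzyme-rich cells, the 48 cell cycle genes tested had a median log2 fold change of -0.45 for medium R848-BPDs against free R848 and -0.53 against saline, with 0 called in both by edgeR's test, beside -0.01 over all genes. The 49 interferon-stimulated genes had medians of 0.36 and 0.11, with 0 called against free R848, and Ly6a higher and Ifi203 lower against saline. The 29 glycolysis and hypoxia genes had medians of 0.34 and 0.40, with 0 called. These comparisons share the prodrug tumors.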
